A study of Mus musculus with 2 samples.

Results

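Lysosomal genes were examined in endogenous CD8+ T cells of C57BL/6 mice that carried B16F10 melanoma and were given adoptive T-cell therapy. A list of 47 genes for lysosomal proteases, other hydrolases, membrane proteins and proton pump subunits was matched to the gene symbols of the array, and 44 of them had a probe set, out of 19505 genes with one. The 3 others, Ctsd, Glb1 and Cd68, were not analysed here. In the CTXpre/CD4post group, female mice aged 6 to 8 weeks were inoculated with 200000 B16F10 cells, received 300 mg/kg cyclophosphamide on day 3, 2000000 Thy1.1 Pmel-1 T cells (CD8+ T cells with a transgenic receptor for a melanoma antigen) on day 5 and 10000 IU of IL-2 daily for 3 days, and were then given 200 µg of the anti-CD4 antibody GK1.5 on days 10, 17 and 24. The CTXpre group shared the tumour, the cyclophosphamide, the Pmel-1 cells and the IL-2 but had no anti-CD4. On day 25, CD8-positive, Thy1.1-negative cells of the inguinal lymph nodes and the spleen were isolated by sorting, a gate that some dendritic cells can also meet because they carry CD8, and RNA extracted from the pooled cells of 5 mice was hybridised to 1 array per group. Each value is therefore a single measurement (n = 1 array), no difference has a replicate check, no test was possible and the number of arrays limits the precision. Levels are log2 expression values, differences were taken as CTXpre/CD4post minus CTXpre, and a gene was counted as higher or lower when its measured levels differed at least 1.5-fold.

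The lysosome is the acidic compartment in which cells break down proteins, glycans and lipids. A proton pump, the V-ATPase, acidifies its lumen, soluble hydrolases cleave the cargo, and heavily glycosylated membrane proteins shield the membrane and export the products. In antigen-presenting cells the same proteases trim antigens and the invariant chain for loading on MHC class II, whereas in cytotoxic T cells lysosome-related granules store granzymes that cathepsin C activates. The transcription factor TFEB drives many of these genes through an E-box word in their promoters.

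The promoters of 3 genes are shown because the word TCACGTG, the core of the element that TFEB binds, or its reverse complement CACGTGA lies in them and their differences were the farthest from 0 among the measured genes with the word. Each window runs from 250 bases before to 50 after the gene's start (RefSeq, GRCm38.p6), 5′ to 3′ on the gene's strand, and capitals mark the word. The window of Lgmn, the protease legumain, is chr12:102439043-102439342 on the minus strand, that of Naglu, a heparan sulfate hydrolase, is chr11:101069844-101070143 on the plus strand, and that of Mcoln1, the lysosomal calcium channel, is chr8:3500269-3500568 on the plus strand.
Lgmn: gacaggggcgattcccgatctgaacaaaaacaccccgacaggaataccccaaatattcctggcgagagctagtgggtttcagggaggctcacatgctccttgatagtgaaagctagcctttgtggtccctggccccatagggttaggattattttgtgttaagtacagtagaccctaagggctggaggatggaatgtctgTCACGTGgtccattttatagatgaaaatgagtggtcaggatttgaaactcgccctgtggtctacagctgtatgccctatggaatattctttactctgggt
Naglu: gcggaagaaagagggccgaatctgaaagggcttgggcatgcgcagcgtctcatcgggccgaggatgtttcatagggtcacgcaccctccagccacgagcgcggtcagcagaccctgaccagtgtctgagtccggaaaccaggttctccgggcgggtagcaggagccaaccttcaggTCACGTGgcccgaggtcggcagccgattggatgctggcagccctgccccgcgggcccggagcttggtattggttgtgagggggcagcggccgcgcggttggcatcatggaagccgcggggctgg
Mcoln1: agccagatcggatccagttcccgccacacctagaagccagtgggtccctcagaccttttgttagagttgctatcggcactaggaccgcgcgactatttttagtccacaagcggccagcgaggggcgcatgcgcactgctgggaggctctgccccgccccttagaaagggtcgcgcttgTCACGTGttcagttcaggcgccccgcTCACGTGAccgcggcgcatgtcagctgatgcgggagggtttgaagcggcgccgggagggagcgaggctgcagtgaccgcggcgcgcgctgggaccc

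Most lysosomal genes had a lower level on the CTXpre/CD4post array, mostly by small amounts. Of the 44 measured genes, 33 had a difference below 0, 10 had one above 0, and Atp6v0d2 was at the same level on both arrays, while 47.7% of all genes had a difference below 0. At least 1.5-fold lower were 6 genes, namely Ctsh, Ppt1, Asah1, Lgmn, Galc and Grn, and 0 were at least 1.5-fold higher. Over all 19505 genes, 3.36% were at least 1.5-fold lower and 3.5% at least 1.5-fold higher. None of the 44 reached 2-fold in either direction, which 0.451% of all genes did downward and 0.426% upward. The median difference of the 44 genes was -0.17, with quartiles at -0.42 and -0.02, and the median over all genes was 0.01. The central 95% of all genes ran from -0.65 to 0.65, so that Grn, at -0.61, lay inside this range and Ctsh, Ppt1, Asah1 and Lgmn outside it. Galc was not placed, since it was not above background in CTXpre/CD4post. In RNA of a mixed sample, fewer cells of a type and less RNA per cell cannot be told apart.

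**Figure D1:**
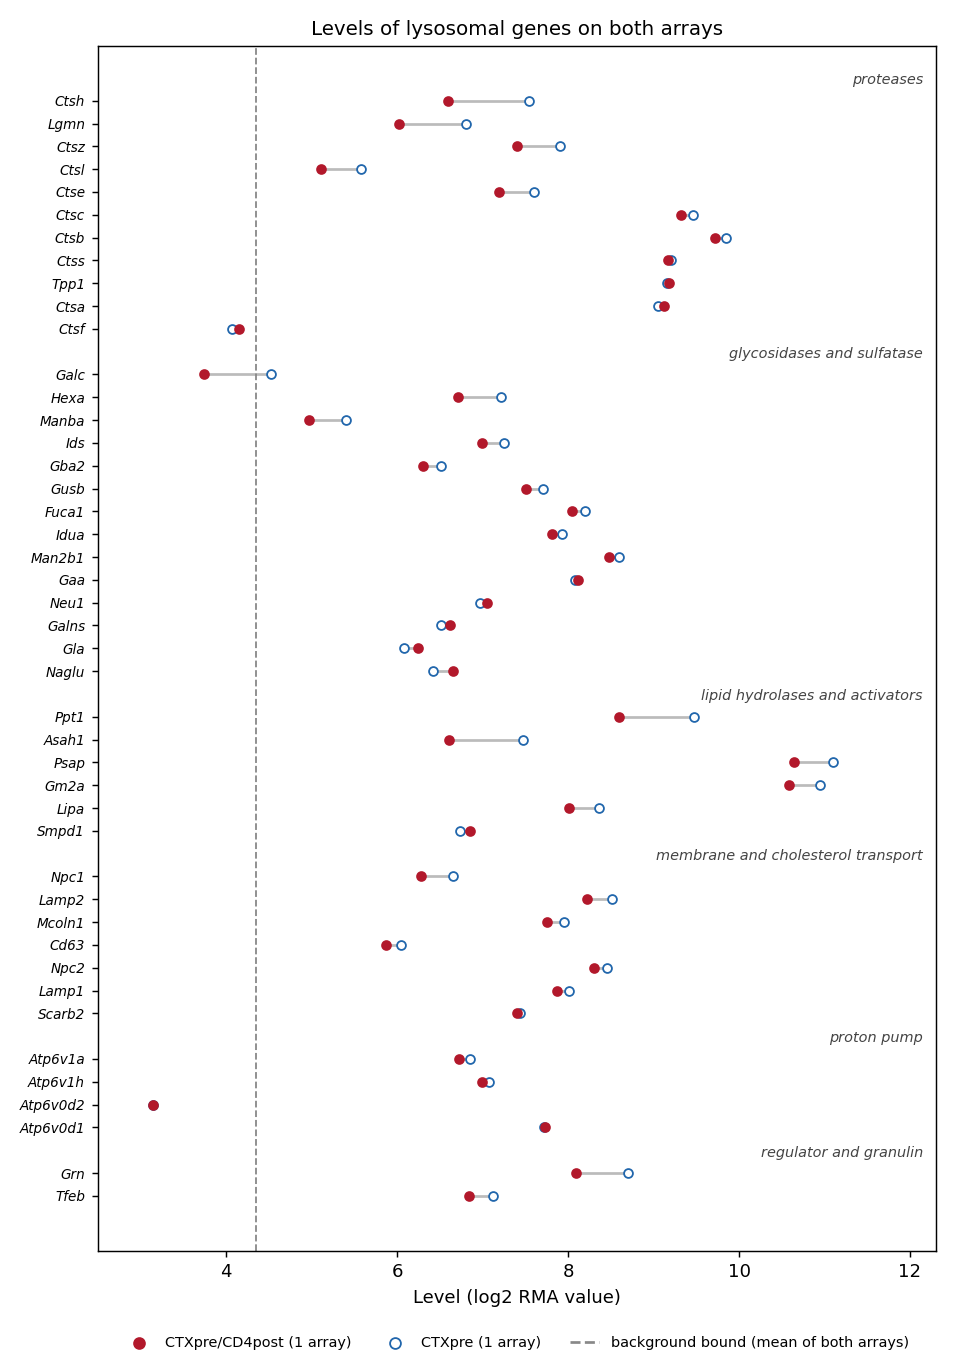
Levels of the 44 measured lysosomal genes (log2 RMA value) on the CTXpre/CD4post array (filled) and the CTXpre array (open), ordered within each role by their difference. Each point is 1 array, and the dashed line is the background bound. Ctsh, Lgmn, Galc, Ppt1 and Asah1 show the widest gaps, with the CTXpre/CD4post point to the left, and that of Galc lies under the background bound.

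A background bound, set at the 95th percentile of the 1450 probe sets that belong to taste, olfactory and vomeronasal receptors, genes not known to be used by T cells, was 4.36 for CTXpre/CD4post and 4.35 for CTXpre. Of the 44 genes, 41 were above the bound on both arrays. Ctsf and Atp6v0d2 were above it on neither, and Galc only on the CTXpre array. Among genes whose mean level of both arrays passed the bound, a filter that favours neither array, 5 of 41 lysosomal genes were at least 1.5-fold lower and 0 higher, against 2.93% lower and 2.81% higher over 12442 genes. In this brighter set 32 of 41 had a difference below 0, against 48% over the 12442 genes, and their median was -0.17.

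Among the proteases, the genes of cathepsin H, legumain and cathepsins Z, L and E were lower on the CTXpre/CD4post array. Those of cathepsins A, B, C and S and of Tpp1 differed little. Of 11 measured protease genes, 2 were at least 1.5-fold lower, 8 had a difference below 0, and the median was -0.15. Beside these counts and those of the roles below, 47.7% of all genes had a difference below 0 and 3.36% were at least 1.5-fold lower. Ctsh, which encodes a cysteine aminopeptidase, had a level of 6.60 in CTXpre/CD4post and 7.55 in CTXpre, 1.93-fold lower, and 0.559% of all genes had a lower difference. Lgmn, which encodes a protease that cuts after asparagine and activates several cathepsins, had levels of 6.03 and 6.81 in CTXpre/CD4post and CTXpre, 1.72-fold lower.

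Another 3 protease genes lay between -0.40 and -0.50. Ctsz, a carboxypeptidase, had a level of 7.41 in CTXpre/CD4post against 7.90 in CTXpre. Ctsl, an endopeptidase, had 5.11 against 5.58, and Ctse, an aspartic protease of endosomes, 7.19 against 7.60. These 3 genes, like Ctsh and Lgmn, are known for their expression in antigen-presenting or phagocytic cells.

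The remaining protease genes stayed within 0.15 of 0. Ctss, the protease that degrades the invariant chain in antigen-presenting cells, differed by -0.04, with levels of 9.17 in CTXpre/CD4post and 9.21 in CTXpre. Ctsb, an endopeptidase of most cell types, differed by -0.13, and Ctsc, whose dipeptidyl peptidase activates granzymes, by -0.15. Ctsa, a carboxypeptidase that protects neuraminidase, differed by 0.06 and Tpp1, a tripeptidyl peptidase, by 0.03. Ctsf had levels of 4.15 in CTXpre/CD4post and 4.07 in CTXpre, neither above background.

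**Figure D2:**
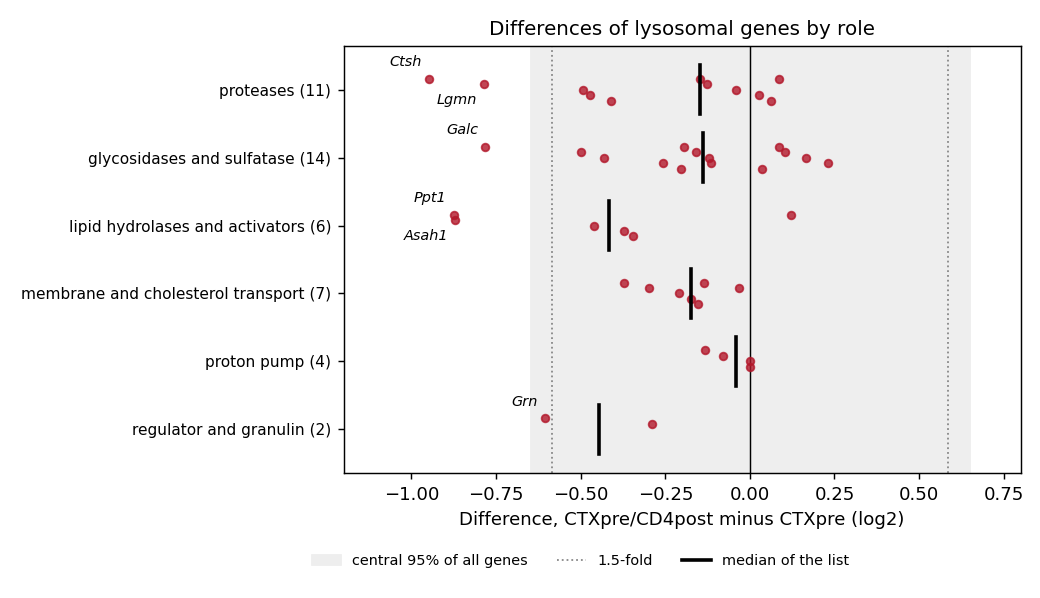
Difference of each measured lysosomal gene (log2, CTXpre/CD4post minus CTXpre) by role, with the number of genes in brackets, 1 point per gene. The thick bar is the median of the role, the dotted lines mark 1.5-fold and the grey band holds the central 95% of all genes. The 6 genes at least 1.5-fold lower are named, and no point lies to the right of the upper 1.5-fold line.

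Glycosidase and sulfatase genes went both ways, with more of them lower. Of 14 measured genes, 9 had a difference below 0, against 47.7% of all genes, and 5 had one above 0, with a median of -0.14. At least 1.5-fold lower was 1 gene, against 3.36% of all genes. That gene was Galc, which removes galactose from myelin lipids, with levels of 3.74 in CTXpre/CD4post, not above background, and 4.52 in CTXpre, so that only a fold of at least 1.12 can be given. Hexa, the alpha subunit of beta-hexosaminidase, followed with 6.71 in CTXpre/CD4post and 7.21 in CTXpre, and Manba, the beta-mannosidase, with 4.97 and 5.41.

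A middle set of glycan-degrading genes lay between -0.26 and -0.12. Ids, a sulfatase that acts on heparan and dermatan sulfate, differed by -0.26 and Gusb, the beta-glucuronidase, by -0.20. Gba2, a beta-glucosidase whose product is not lysosomal, also differed by -0.20. Fuca1 (alpha-fucosidase) differed by -0.16, and Idua (alpha-iduronidase) and Man2b1 (alpha-mannosidase) by -0.12 each.

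The 5 genes with a higher level were Naglu, at 6.65 in CTXpre/CD4post and 6.42 in CTXpre, Gla (alpha-galactosidase A), at 6.25 and 6.09, the sulfatase Galns, at 6.62 and 6.52, the sialidase Neu1, at 7.05 and 6.97, and Gaa (acid alpha-glucosidase), at 8.12 and 8.09. The difference of Naglu, 0.23, was the highest of all 44 genes, and 79.8% of all genes had a lower one. Genes that act in succession on heparan sulfate thus had differences of either sign (Ids, Idua, Gusb and Naglu).

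Genes for lipid breakdown had the lowest median among the roles with at least 3 genes, -0.42 over 6 genes, and 5 of the 6 had a difference below 0. Ppt1, the thioesterase that removes palmitate from proteins, had a level of 8.59 in CTXpre/CD4post and 9.47 in CTXpre, 1.83-fold lower. Asah1, the acid ceramidase, had 6.60 in CTXpre/CD4post and 7.47 in CTXpre, also 1.83-fold lower. These genes are not among those listed here as abundant in antigen-presenting or phagocytic cells. The list does not show that they are absent from such cells, and the part of such cells in their differences was not tested. Lower differences than those of Ppt1 and Asah1 were found for 0.841% and 0.851% of all genes.

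Activators of sphingolipid hydrolysis differed less than 1.5-fold. Psap, the precursor of the saposins, had levels of 10.64 in CTXpre/CD4post and 11.10 in CTXpre, and Gm2a, the GM2 activator that works with hexosaminidase A, 10.58 and 10.95. Lipa, the acid lipase of cholesteryl esters, had 8.01 in CTXpre/CD4post and 8.36 in CTXpre. Smpd1, the acid sphingomyelinase, was the only gene for lipid breakdown with a difference above 0, with 6.86 in CTXpre/CD4post and 6.74 in CTXpre. Thus the gene of an enzyme that makes ceramide in the lysosome differed by 0.12 and that of the enzyme that degrades it by -0.87.

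All 7 measured genes of membrane proteins and cholesterol transport had a difference below 0, and none reached 1.5-fold, with a median of -0.17 and a range from -0.37 to -0.03. Npc1, the membrane cholesterol transporter, had the lowest difference, with levels of 6.28 in CTXpre/CD4post and 6.65 in CTXpre, while its soluble partner Npc2 differed by -0.15. Of the glycoproteins that line the membrane, Lamp2 had 8.22 in CTXpre/CD4post and 8.52 in CTXpre, and Lamp1, also used as a mark of degranulation on cytotoxic cells, 7.87 and 8.01. Mcoln1 differed by -0.21, the tetraspanin Cd63 by -0.17 and Scarb2, the sorting receptor of glucocerebrosidase, by -0.03.

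Proton pump genes were nearly level, with a median of -0.04 over 4 genes. Atp6v1a, the catalytic subunit, had 6.72 in CTXpre/CD4post and 6.86 in CTXpre, Atp6v1h differed by -0.08 and Atp6v0d1, the common d subunit, by 0.00. Atp6v0d2, the d subunit of osteoclasts and macrophages, was listed at 3.15 on both arrays, not above background. Outside these roles, Grn, which encodes the lysosomal growth factor progranulin, had 8.10 in CTXpre/CD4post and 8.70 in CTXpre, 1.52-fold lower, and Tfeb had 6.84 and 7.12.

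Lists of other lysosome genes had medians closer to 0 than that of the 44 genes. Beside the counts in these lists and in the marker lists below, 3.36% of all genes were at least 1.5-fold lower and 3.5% higher. Of 13 further V-ATPase subunits and accessory proteins, 1 was at least 1.5-fold lower and 0 higher, with a median of -0.12. That gene was Atp6v0a1, a subunit isoform of the membrane sector, with 4.50 in CTXpre/CD4post and 5.55 in CTXpre, 2.06-fold lower. Its CTXpre/CD4post level lay little above the background bound of 4.36, which limits this fold. The isoforms Atp6v0a2 and Tcirg1 of the same subunit differed by 0.13 and -0.12, and Atp6v1c1 by 0.27.

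Of 18 further lysosomal hydrolases, 2 were at least 1.5-fold higher and 1 lower, with a median of -0.01. The gene of the carboxypeptidase Prcp differed by -0.71 and that of the folate hydrolase Ggh by 0.61. Ctsk, the other gene past 1.5-fold, was above background on neither array. Creg1 differed by -0.49. Ctsw, a cathepsin of cytotoxic lymphocytes, had 10.41 in CTXpre/CD4post and 10.19 in CTXpre. Of 23 further membrane and sorting genes, 1 was at least 1.5-fold lower, the sorting receptor Sort1 (5.50 in CTXpre/CD4post and 6.27 in CTXpre), and 0 were higher, with a median of -0.07. Slc17a5, the sialic acid exporter, differed by 0.35 and Slc38a9, an arginine sensor, by -0.34.

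Of 18 genes of the TFEB family and of the mTORC1 branch that restrains it, 1 was at least 1.5-fold lower and 0 higher, with a median of -0.12. Fnip2 differed by -0.66 and Mitf by -0.56, its CTXpre/CD4post level of 4.17 lying under the bound, whereas Rptor, the mTORC1 scaffold, differed by 0.44. The paralog Tfe3 differed by 0.005. Of 8 cathepsin inhibitor genes, 3 had a mean level above the bound. Cst3, cystatin C, had 10.88 in CTXpre/CD4post and 11.28 in CTXpre. Cst7, cystatin F, which restrains cathepsin C in cytotoxic cells, had 8.38 in CTXpre/CD4post and 8.00 in CTXpre, and Cstb differed by -0.02. Cst3 and Cst7 thus differed in opposite directions by similar amounts, and neither reached 1.5-fold.

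**Figure D3:**
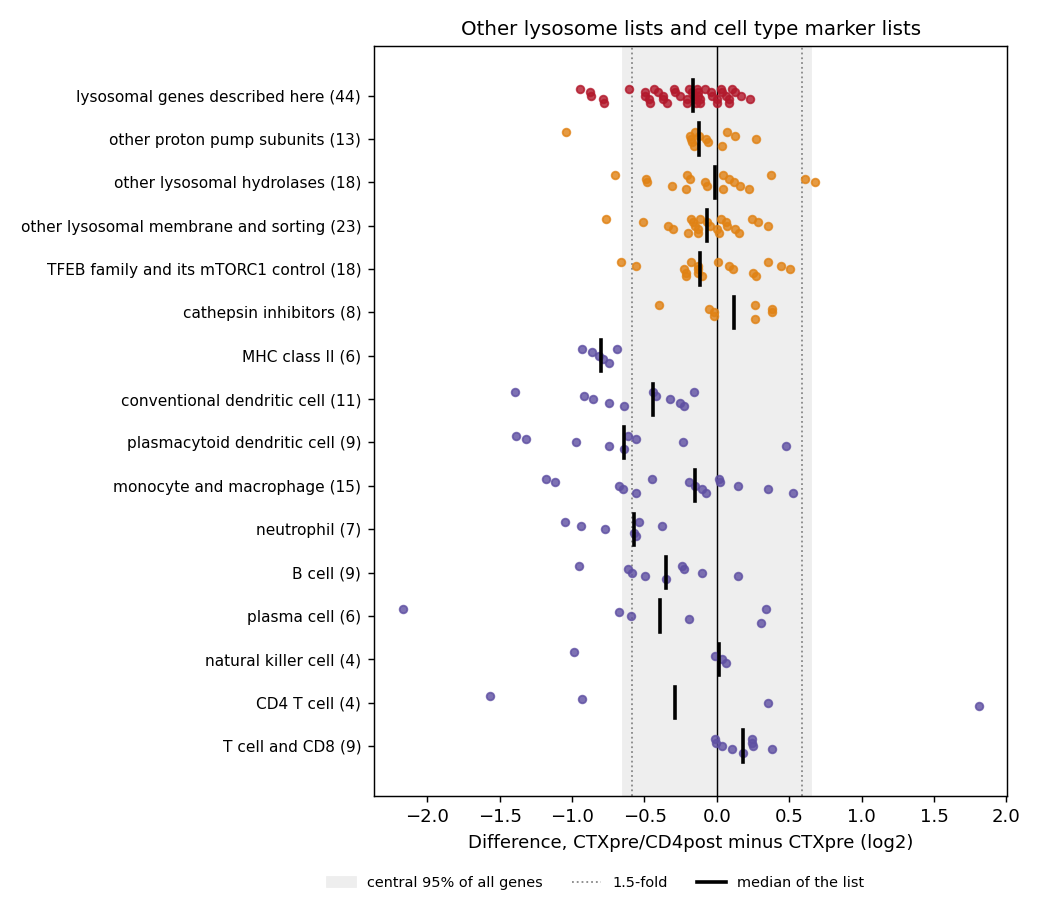
Difference (log2, CTXpre/CD4post minus CTXpre) of each gene of the lysosomal list (red), of 5 further lysosome lists (orange) and of 10 cell type marker lists (purple), 1 point per gene, with the number of measured genes in brackets. Thick bars are list medians, dotted lines mark 1.5-fold and the grey band holds the central 95% of all genes. The MHC class II median lies at -0.80, that of the lysosomal genes at -0.17 and that of T-cell and CD8 genes at 0.18.

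Most markers of antigen-presenting cells, which are rich in these proteases, were lower on the same array. All 6 measured MHC class II genes differed downward by at least 1.5-fold, their median was -0.80, and their summed linear level was 4809 in CTXpre/CD4post and 8250 in CTXpre. Conventional dendritic cell markers, of which 5 of 11 passed that size downward, had a median of -0.44 and summed levels of 1668 in CTXpre/CD4post and 2238 in CTXpre. Ccr7, with levels of 9.96 in CTXpre/CD4post and 10.19 in CTXpre, was the brightest of these markers and weighs most in their sums. Whether its RNA came from dendritic cells was not tested. Plasmacytoid dendritic cell markers (6 of 9) had a median of -0.64 and sums of 1557 and 2235 in CTXpre/CD4post and CTXpre. Among these markers, Bst2 went the other way, at 0.48. Ccr9, 1 of the 6, had 8.06 in CTXpre/CD4post and 8.70 in CTXpre, and whether its RNA came from dendritic cells was not tested. No gene of these 3 lists was higher by 1.5-fold, and all were above the bound on at least 1 array. The lowest in each list was H2-Eb1 at -0.93, Fscn1 at -1.40 and Tlr9 at -1.39.

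Markers of phagocytes and B-lineage cells had medians below 0 as well. Of 15 monocyte and macrophage markers, 4 were lower by 1.5-fold, 10 had a difference below 0 and 5 had one above 0. Their median was -0.15, and the summed level was 759 in CTXpre/CD4post and 1114 in CTXpre. Fcgr3 and Mpeg1 differed by -1.18 and -1.12, and Ccr2 went the other way, at 0.52. Of the genes that mark tissue macrophages, C1qa, C1qc and Spic were above background on neither array, whereas C1qb, Marco and Vcam1 were above it on both and differed by -0.56, -0.15 and 0.02. All 7 neutrophil markers had a difference below 0 (3 of them lower by 1.5-fold, median -0.58), and they summed to 670.1 in CTXpre/CD4post and 1153 in CTXpre. B-cell markers (3 of 9 lower, median -0.35) summed to 992 in CTXpre/CD4post and 1227 in CTXpre. Plasma cell markers (3 of 6 lower, median -0.39) summed to 387 in CTXpre/CD4post and 596 in CTXpre. Of these 3, only Jchain, the joining chain of secreted antibodies, was above background on both arrays, and it differed by -2.17. Sdc1 was above background in CTXpre alone and Tnfrsf17 on neither array, while Prdm1 and Derl3 differed by 0.34 and 0.30.

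Lymphocyte markers other than those of B cells went different ways. Natural killer cell markers (1 of 4 lower, median 0.01) summed to 510.3 in CTXpre/CD4post and 532 in CTXpre. The lower gene, Klrb1c, had 4.31 in CTXpre/CD4post, not above background, and 5.30 in CTXpre, at least 1.92-fold lower. Eomes, at 8.79 in CTXpre/CD4post and 8.80 in CTXpre, was the brightest and weighs most in these sums. Ncr1 was above background on neither array. Of 4 CD4 T-cell genes 2 were lower and 1 higher, with a median of -0.29 and sums of 227 in CTXpre/CD4post and 326 in CTXpre. Cd4 itself, the target of the antibody, had a level of 5.98 in CTXpre/CD4post and 7.55 in CTXpre, and Gpr83 had 5.14 and 6.07. Cd40lg, the CD40 ligand, went the other way, with 5.82 in CTXpre/CD4post and 4.02 in CTXpre, where it was not above background, at least 2.78-fold higher. The study counted Cd40lg among the higher genes of endogenous CD8+ T cells that it tied to activation, differentiation and migration. Which cells gave the Cd40lg RNA was not tested here. Zbtb7b differed by 0.36. None of 9 T-cell and CD8 genes passed 1.5-fold, their median was 0.18, and they summed to 16310 in CTXpre/CD4post and 14803 in CTXpre. The part of other cell types in the lysosomal differences was not tested.

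Among the lysosomal genes themselves, 12 are known to be abundant in antigen-presenting or phagocytic cells (Ctsb, Ctse, Ctsh, Ctsl, Ctss, Ctsz, Lgmn, Cd68, Grn, Lipa, Fuca1 and Atp6v0d2). The 11 measured ones had a median difference of -0.41, 10 of them below 0 and 3 at least 1.5-fold lower (Ctsh, Lgmn and Grn). The 33 other genes had a median of -0.15, with 23 below 0, 10 above 0 and 3 at least 1.5-fold lower (Ppt1, Asah1 and Galc). The list does not show that these 33 are absent from such cells. Summed over genes, the linear level was 2734 in CTXpre/CD4post and 3339 in CTXpre for the 11, and 9254 and 11102 for the 33. Without the genes of the 12, the protease median was 0.0452 over 4 genes, of which Ctsf was above background on neither array.

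The promoters were searched for TCACGTG and CACGTGA on the printed strand, which covers both strands, and overlapping matches at 1 site were counted once. RefSeq windows of 300 bases were at hand for 39 of the 47 genes, and not for Npc1, Atp6v0d2, Ctse, Galns, Asah1, Ctsb, Ctsh and Atp6v1h. The word lay in 11 of 44 windows of these genes, 25.0%, and in 3.77% of all 32851 windows. The shorter core CACGTG, which the longer word contains, lay in 13 of the 44 windows and in 7.15% of all. Lamp1 had 4 sites, Mcoln1, Ctsa, Gla and Ctsd 2 each, and Lgmn, Naglu, Gaa, Atp6v0d1, Atp6v1a and Glb1 1 each. A match is a description of these letters and does not show binding.

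The 9 measured genes with the word had a median difference of 0.00, with 5 above 0 and 4 below 0, and Lgmn was the only one of them at least 1.5-fold lower. The next lowest was Mcoln1, at -0.21. The 27 measured genes with a window but without the word had a median of -0.20, with 4 above 0 and 23 below 0, and 3 at least 1.5-fold lower. Over all genes with a window, the medians were -0.00 for 817 with the word and 0.01 for 14874 without it. Below 0 were 414 of the 817 and 7101 of the 14874, and 20 and 508 were at least 1.5-fold lower. Ctsh and Asah1, both at least 1.5-fold lower, have no window and are in neither set. Of the genes listed as abundant in antigen-presenting or phagocytic cells, Lgmn had the word. Ctsl, Ctss, Ctsz, Fuca1, Grn and Lipa had a window without it. The part of such cells in this contrast was not tested.

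**Figure D4:**
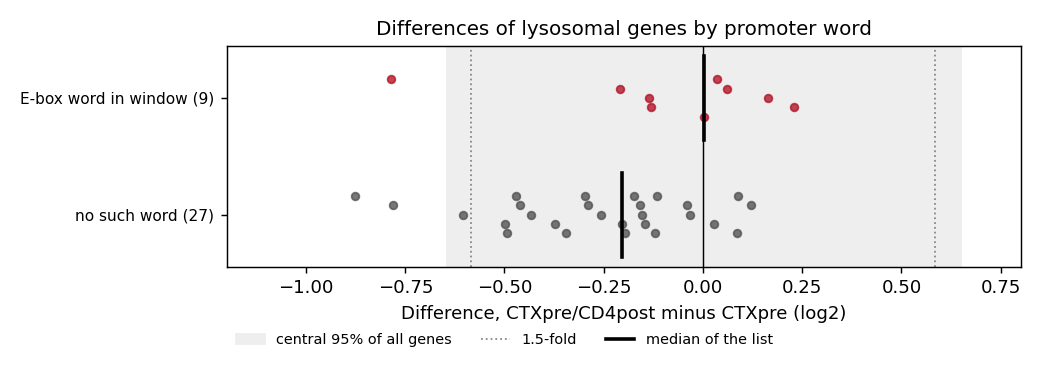
Difference (log2, CTXpre/CD4post minus CTXpre) of lysosomal genes whose promoter window holds the E-box word (9 genes, red) and of those whose window does not (27 genes, grey), 1 point per gene. Thick bars are medians, at 0.00 and -0.20, dotted lines mark 1.5-fold and the grey band holds the central 95% of all genes. The lowest red point is Lgmn.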

How the data were processed

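RNA of endogenous CD8+ T cells was measured on 2 Clariom S mouse arrays (Affymetrix), 1 per group. Per the labels and the study's methods, the authors used Affymetrix Power Tools with RMA (robust multi-array average), and the deposited log2 values are its output. Their versions: not given in the sources used here. RMA gives both arrays the same distribution of probe intensities before these are summarised, which hides any change in total RNA. Median levels were 5.15 on both arrays, and 0 columns of per-sample values were left unused.

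Of 22206 probe sets, 19572 carried 1 symbol, 0 several and 2634 are unnamed here. For the 55 genes with several probe sets (0 lysosomal genes) the brightest stood for the gene. Differences, counts and medians were computed with pandas 2.3.3 and numpy 2.4.6, and no p-value was computed. Where 1 array was not above the background bound, the fold is the brighter level over the higher of the bound and the dim level. The summaries were tested on simulated data.

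The members and lists were chosen with earlier results of these data known. Named genes are every lysosomal gene with a probe set and, in each other list, up to 3 members with the largest absolute differences among those with a mean level above the bound. Others were named after their values were seen (Atp6v0a2, Tcirg1, Ctsk, Ctsw, Tfe3, Ccr7, Bst2, Ccr9, Ccr2, C1qa, C1qb, C1qc, Spic, Marco, Vcam1, Sdc1, Tnfrsf17, Ncr1 and Zbtb7b). Alternatives were centring, quantile normalization, a lowess trend (fraction 0.3, statsmodels 0.14.6), 32 added to the linear values, probe set means, filters on the mean level at the 95th and 99th percentile, lists without named members, list means and a 2-fold size.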

Additional observations from a re-analysis of the deposited data

How the results depend on the processing

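With 1 array per group no sample could be left out, and a median was taken to have moved when it changed by over 0.1. The median of all 44 genes stayed below 0 under each of 11 alternatives, from -0.24 (their mean) to -0.14, and those of the glycan, lipid, membrane and pump genes also stayed below 0. Of these alternatives, probe set means could change no value, since 0 lysosomal genes had several probe sets. Centring lowered every difference by the same 0.01. The protease median of -0.15 was -0.28 with either filter on the mean level, which drops Ctsf, and its mean was -0.30. It turned to 0.0452 without the genes abundant in antigen-presenting or phagocytic cells, which leaves 4 genes with Ctsf among them. The count of 6 genes at least 1.5-fold lower became 3 with 32 added to the linear values, 3 without those genes, and 0 at 2-fold. With levels not above the bound set at the bound, an alternative added after seeing the data, it was 5. Of the single genes, Ctsh, Ppt1 and Asah1 passed 1.5-fold under each of 5 alternatives, and Lgmn, Galc and Grn under 4. These 5 included probe set means, which could not differ, and centring. Dim probe sets limit Galc, which differed by -0.28 with 32 added.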
